A study of Mus musculus with 6 samples.

Results

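The cytosolic ribosomal protein genes were followed by their UMI counts (unique molecular identifiers, 1 per captured transcript molecule) in germinal centre B cells of mouse spleen. A gene was taken as a member when its symbol began with Rpl or Rps followed by a digit, or was Rplp0, Rplp1, Rplp2 or Rpsa; symbols ending in -ps and the S6 kinase genes (Rps6k) were left out. The rule found 84 members among the 14548 symbols listed in all 3 deposited count tables, and 87 in any table. Of the 84, 31 encode proteins of the small (40S) subunit, 43 proteins of the large (60S) subunit, 3 are the P stalk genes, and 7 are paralogues or genes that only share the naming (Rpl22l1, Rps27l, Rps27rt, Rpl36al, Rpl39l, Rpl7l1 and Rps19bp1). The 3 symbols outside the shared set were Rpl10l with 0 UMIs, Rpl3l with 1 UMI and Rpl6l with 697 UMIs, the last 2 counts from the day 7 table.

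Adult mice received an NP-haptenated antigen in alum by intraperitoneal injection, and sorted cells were sequenced with 10x droplet chemistry that reads transcripts from the 5′ end. The 2 day 7 libraries held wild-type cells gated as B220+ CD38- GL7hi, and the 2 day 14 libraries wild-type cells gated as B220+ CD95hi GL7hi IgD-. The control chimaera library came from irradiated Il4ra+/+ hosts and the KO chimaera library from irradiated Ccl19Cre/+ Il4raf/f hosts. Both chimaeras carried wild-type bone marrow and were sorted at day 14 with the day 14 gate, 1 library each. The Cre is driven by Ccl19, a gene of lymphoid stromal cells, so the sorted B cells kept an intact Il4ra (56.1 CPM, its UMIs scaled to a fixed total per library, in control and 64.9 CPM in KO cells), and that level checks nothing about the deletion. The labels do not say that libraries of a group came from separate animals. The p-values thus measure only the spread among these libraries and the sums of cells taken from them.

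The libraries held 1012 to 10648 cells and 20339933 to 62202828 UMIs. The median cell of the day 7 libraries had 17278 and 18234 UMIs, that of the day 14 libraries 3399 and 3179, that of the control 6676 and that of the KO library 7186. Mitochondrial genes took 2.68% to 2.72% of UMIs at day 7, 7.61% to 7.87% at day 14 and 3.09% to 3.17% in the chimaeras. Defining B cell genes were high in every library (Cd79a at 1607 to 2743 CPM, Ms4a1 at 1019 to 1319 CPM). Markers of other cells were low: Cd3e stood at 0 to 0.751 CPM, Lyz2 at 0.169 to 14.6 CPM and Ccl19 at 0 to 0.169 CPM. Summed levels ranged from 59.3 to 128 CPM for the 8 shared T cell markers, 15.2 to 67.6 CPM for 10 myeloid markers, 120 to 249 CPM for 6 stromal markers and 61.4 to 655 CPM for 6 erythroid markers. The highest erythroid sum was that of day 7 library 1. Between 1 and 135 cell barcodes were shared by a pair of libraries. Sort gate, cell filters and gene annotation changed with the day and cannot be told apart from it.

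A cytosolic ribosome is built from a small subunit, which decodes the messenger RNA, and a large subunit, which forms peptide bonds and carries the P stalk that recruits translation factors. Most vertebrate ribosomal protein transcripts start with a pyrimidine-rich tract at their 5′ end (a TOP tract), through which mTOR signalling controls their translation. In germinal centres, B cells divide and mutate in the dark zone (DZ) and are selected in the light zone (LZ), where T cell help induces MYC, a known driver of ribosome production.

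Members were among the most abundant transcripts of these cells. Together they took 22.50% of UMIs in day 7 library 1 (exact 95% interval 22.48 to 22.52) and 23.20% in library 2 (23.19 to 23.21). At day 14 the shares were 21.38% (21.36 to 21.39) and 21.04% (21.03 to 21.05), and in the chimaeras 27.19% in the control (27.18 to 27.21) and 27.09% in the KO library (27.07 to 27.10). Over all cells the chimaera libraries were thus highest and the day 14 libraries lowest. The order of the other 4 libraries depended on what was counted: without mitochondrial genes day 14 library 1 stood at 23.14% and day 7 library 1 at 23.13%, and among cells with 7000 to 10000 UMIs the day 14 libraries (24.87% and 24.41%) lay above the day 7 libraries (21.02% and 21.64%). Of the 84 members, 73 averaged at least 1000 CPM over the 6 libraries. The 40S genes held 45.8% to 47.6% of member UMIs, the 60S genes 46.3% to 49.7%, the P stalk genes 3.58% to 5.23% and the remaining 7 genes 0.81% to 1.35%.

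The highest mean level by UMIs, which are counted per molecule and not scaled by length, was that of Rpsa, the 40S protein that also serves as laminin receptor. Rpsa stood at 5589 and 5912 CPM at day 7, 8080 and 8487 CPM at day 14, 8091 CPM in control and 8104 CPM in KO cells. Rps20 followed with 5957 and 6258 CPM at day 7, 6640 and 6511 CPM at day 14, 8647 CPM in control and 8537 CPM in KO cells. Rpl13 ranged from 4686 to 7499 CPM, Rplp0 from 3429 to 6808 CPM and Rps29 from 3535 to 6460 CPM. The order of these genes differed between libraries, and their ranges overlapped. Of the ribosomal proteins that the symbol rule leaves out, Fau, which encodes the 40S protein eS30 fused to a ubiquitin-like protein, stood at 5519 to 8584 CPM. The 40S scaffold Rack1 (listed as Gnb2l1 at day 7) stood at 908 to 1630 CPM of all symbols.

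Among the 83 members with a mean of at least 20 CPM, the highest library exceeded the lowest by a median of 1.59-fold, and 70 members varied by less than 2-fold. The steadiest were Rps6 and Rpl4 at 1.15-fold. The other 13 members included Rps27rt at 24.4-fold, Rpl13a at 3.42-fold, Rpl23a at 3.33-fold, Rpl10 at 3.24-fold, Rpl9 at 2.65-fold and Rps27l at 2.48-fold.

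The 7 paralogues and near names were mostly far below the genes they resemble. Rps27 (chr3:90212522-90213651, minus strand, GENCODE M21 on GRCm38) encodes the 40S protein eS27 and stood at 3823, 3784, 4400, 3971, 3647 and 3530 CPM in day 7 libraries 1 and 2, day 14 libraries 1 and 2, control and KO. Rps27l (chr9:66946086-66949516, plus strand), its p53-responsive paralogue, stood at 282 and 316 CPM at day 7, 133 and 127 CPM at day 14, and 291 and 311 CPM in control and KO. Rps27rt (chr9:114982366-114982739, minus strand), a copy of Rps27 whose transcript matches it at 100% identity over at least 80% of its length, stood at 888 and 372 CPM at day 7, 44.1 and 43.5 CPM at day 14, and 38.4 and 36.4 CPM in control and KO. Both day 7 libraries were above the others for Rps27rt, library 1 most. Since reads of the 2 genes cannot be separated where they are identical, both counts are uncertain. Rpl36al (892 to 1206 CPM) was close to Rpl36a (897 to 1644 CPM), 2 genes for the 60S protein eL42. Rpl22l1 (501 to 791 CPM) stood below Rpl22 (1933 to 2580 CPM), whose product binds RNA and is known for a role in lymphocyte development. Rpl39l, a paralogue of Rpl39 (2596 to 4239 CPM) known from testis, was at most 2.94 CPM and at 0 in day 7 library 2. Rpl7l1 (60.1 to 95.9 CPM) and Rps19bp1 (48.2 to 74.8 CPM), which encode nuclear factors of ribosome assembly and of Sirt1 regulation and not core ribosomal proteins, were low in all libraries.

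The starts of the genes were read from RefSeq promoter entries on GRCm38.p6, because the 5′ pyrimidine tract is the sequence feature these transcripts are known to share. Of the 84 members, 64 had an entry, some more than 1 (75 entries among 32851 in all). The search was for CTTTT as well as for the strings CTTTC and, beside them, CTTCC together with the string CCTTT and lastly for TTTCC, which overlap one another. At least 1 of these 5 lay on the transcribed strand within 20 bases before to 20 bases after the start in 49.3% of member entries and in 21.6% of all entries. On the other strand the values were 22.7% and 21.6%, and over the whole entry (250 bases before to 50 after the start) 94.7% and 82.2%. CTTTC alone lay near the start in 26.7% of member entries against 5.49% of all. A match is a description of these letters and not of a working tract. The windows below are those of some members whose phase or cluster differences are described further on, chosen after their values were seen. The 5 strings are in capitals. Other members described there are not shown. Among them, Rpl39, which fell in G2M, has no such string in its window. Rpl37, which fell too, and Rpsa, which rose, have TTTCC. Whether the strings go with the direction of a difference was not tested.
Rps27, chr3:90213629-90213668, minus strand: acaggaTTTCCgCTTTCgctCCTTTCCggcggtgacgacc
Rps27rt, chr9:114982720-114982759, minus strand: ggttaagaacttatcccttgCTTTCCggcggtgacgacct
Rps27l, chr9:66946066-66946105, plus strand: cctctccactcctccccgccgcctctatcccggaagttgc
Rps15a, chr7:118116128-118116167, minus strand: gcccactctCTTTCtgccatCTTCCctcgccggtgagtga
Rps24, chr14:24490658-24490697, plus strand: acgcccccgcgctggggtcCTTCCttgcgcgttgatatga
Rps2, chr17:24720043-24720082, plus strand: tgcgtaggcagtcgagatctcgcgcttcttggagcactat
Rpl14, chr9:120571497-120571536, plus strand: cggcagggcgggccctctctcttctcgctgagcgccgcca
Rps15, chr10:80292411-80292450, plus strand: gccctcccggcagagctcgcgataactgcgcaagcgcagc
Rpl36a, chrX:134585634-134585673, plus strand: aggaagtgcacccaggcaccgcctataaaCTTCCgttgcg
Rpl36al, chr12:69184048-69184087, minus strand: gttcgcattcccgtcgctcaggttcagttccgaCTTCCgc
Rpl10, chrX:74270796-74270835, plus strand: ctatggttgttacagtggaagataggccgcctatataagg
Rpl41, chr10:128549149-128549188, minus strand: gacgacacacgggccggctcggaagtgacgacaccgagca
The windows of Rps27 and Rps27rt shared a run of 19 bases, those of Rps27 and Rps27l 5 bases, and those of Rpl36a and Rpl36al 7 bases. Rps27l and Rps24 had a further entry each, not shown.

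Across the cell cycle, the summed share was lowest in cells called G2M in 6 of 6 libraries. In G1, S and G2M cells the shares were 23.01%, 22.89% and 21.59% in day 7 library 1 and 23.81%, 23.81% and 22.27% in library 2. They were 22.29%, 22.13% and 19.79% in day 14 library 1 and 21.95%, 21.93% and 19.43% in library 2. In the chimaeras they were 28.79%, 27.09% and 25.51% in control and 28.86%, 27.18% and 25.53% in KO cells. G2M cells thus lay 1.42 to 3.33 percentage points under G1 cells, and S cells were near G1 cells at day 7 and day 14 and between the other phases in the chimaeras. UMIs per cell moved with the phase, with medians of 2461 to 13875 in G1 cells and 3940 to 22455 in G2M cells, and their part in the summed shares was checked at matched depth. Among cells with 7000 to 10000 UMIs G2M was lowest in each library too, at 23.50% against 26.37% in G1 cells for day 14 library 1 and 24.38% against 29.64% for the KO library. These summed shares carry no test.

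**Figure D1:**
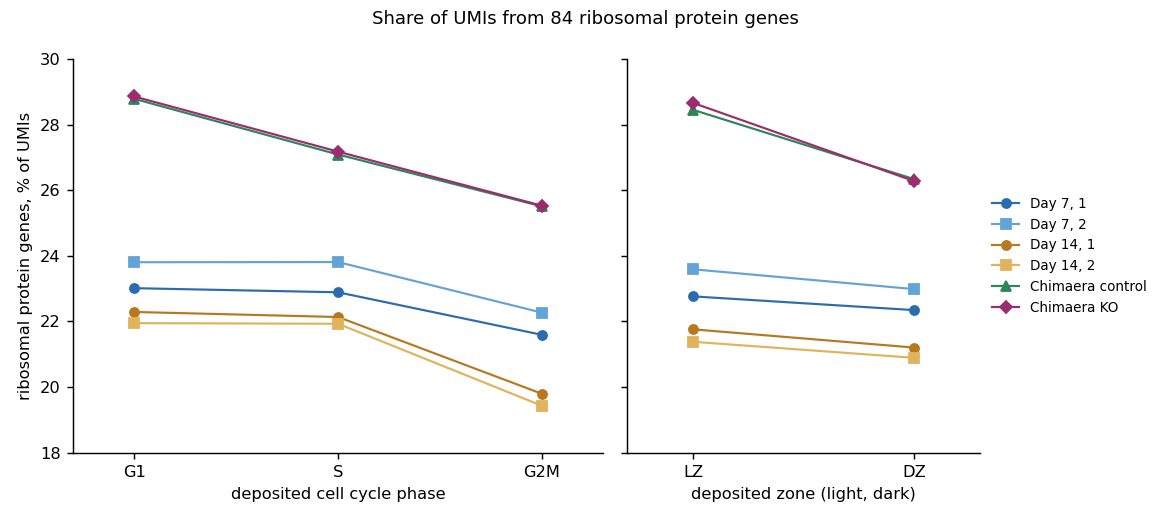
Share of UMIs held by the 84 members (y axis, percent) in cells of each phase and of each zone call (x axis), with 1 line per library for the 6 libraries. The G2M value is the lowest phase value in 6 of 6 libraries, and over all cells the DZ value lies under the LZ value in 6 of 6.

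The members were then tested between phases within libraries, on counts summed per library and phase with the library as a block. In G2M against G1 cells, 45 of 84 members fell and 6 rose at an edgeR adjusted p under 0.05, against a background of 31.6% of all 11429 genes tested that fell and 28.6% that rose. The fallen share of members was above that background, while the risen share was below it. The median log2 difference was -0.08 for members and -0.03 for all genes. Of the 45, 2 fell by 0.25 or more, while 2635 of the 11429 genes did. At that fold the members were thus under the background. Among cells with 7000 to 10000 UMIs the medians were -0.23 for members and -0.0050 for all genes, with 36 members lower by 0.25 or more. With the zone call as a term the members' median was -0.19, with 24 such members. The count of all genes past 0.25 is not given for these settings. Of the 40S genes, 19 of 31 fell and 3 rose, and of the 60S genes 24 of 43 fell and 2 rose. With no scaling beyond the library total the split was 64 lower and 0 higher (38.9% and 22.8% of all genes). In cells with 7000 to 10000 UMIs it was 55 and 0 (18.7% and 20.3% of all genes), with 42 of the 45 among the 55.

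Rps27 changed most. Its level went from 4229 CPM in G1 to 3641 CPM in G2M cells in day 7 library 1, and from 4299 to 3566 CPM in library 2. It went from 5433 to 3779 CPM and from 4964 to 3396 CPM in the day 14 libraries, from 4273 to 3295 CPM in control and from 4135 to 3240 CPM in KO cells. G2M was lower in 6 of 6 libraries, and the G1 levels (4135 to 5433 CPM) did not overlap the G2M levels (3240 to 3779 CPM). The fitted log2 difference was -0.32 (SE 0.035, edgeR adjusted p = 2.87e-07), and it was -0.28 without the clusters led by memory-precursor, haemoglobin or plasma genes that are described further on.

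Rpl30, a 60S protein, went from 2908 to 2574 CPM and from 2938 to 2641 CPM at day 7, from 2622 to 1869 CPM and from 2540 to 1747 CPM at day 14, and from 3814 to 3150 CPM and from 3888 to 3227 CPM in control and KO. Each library thus had its lower value in G2M cells, with a fitted log2 of -0.25 (edgeR adjusted p = 1.81e-05), while levels overlapped across libraries. Other members with low differences were the 40S gene Rps24 at -0.21 (adjusted p = 1.8e-05) and the 60S gene Rpl37 at -0.21 (adjusted p = 3.89e-06). At the other end stood Rps15 at 0.15 (adjusted p = 0.00719), Rpl14 at 0.13 (adjusted p = 0.00134), Rpl41 at 0.12 (adjusted p = 0.0238) and Rpsa at 0.10 (adjusted p = 0.0298). The rises depended on which cells entered, since Rpl14 stood at -0.08, Rpsa at -0.03 and Rpl41 at -0.01 among cells with 7000 to 10000 UMIs. Rps15, a 40S protein, differed between tables: it went from 1063 to 1054 CPM and from 1120 to 1116 CPM at day 7 and from 1236 to 1220 CPM and from 1176 to 1178 CPM in control and KO, but from 1302 to 1564 CPM and from 1404 to 1700 CPM at day 14.

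None of the P stalk genes passed the test: Rplp0 stood at -0.08 (adjusted p = 0.052), Rplp1 at 0.01 (adjusted p = 0.816) and Rplp2 at 0.03 (adjusted p = 0.369). Among the paralogue pairs, Rps27rt fell like Rps27 (-0.20, adjusted p = 0.000381), while Rps27l did not pass (0.06, adjusted p = 0.197). Rpl36al fell (-0.17, adjusted p = 5.69e-06) and Rpl36a stood at -0.02 (adjusted p = 0.579). Rpl22 fell by 0.12 on the log2 scale (adjusted p = 0.000379), and Rpl22l1 stood at -0.07 (adjusted p = 0.0682). Whether the genes of a pair differed from each other was not tested. Rpl39 (-0.17) and Rpl7 (-0.12) fell, Rpl7l1 rose by 0.08 (adjusted p = 0.0469), and Rps19bp1 stood at 0.07 (adjusted p = 0.208). Outside the symbol rule, Fau fell (-0.16). Among 24 other TOP-type translation genes 11 fell and 4 rose, led by the intermediate filament gene Vim at -0.48, the histone chaperone Nap1l1 at 0.40 and the nascent-chain factor Btf3 at -0.33. Among 40 ribosome assembly genes 19 fell and 8 rose, led by Ubtf, the RNA polymerase I factor, at -0.55, Utp20 at -0.50 and Tsr1 at -0.47.

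In S against G1 cells the members split: 17 fell and 28 rose, against backgrounds of 34.2% and 29.1%. The median difference was 0.02 on the log2 scale. A group of members that includes Rps2 and Rpl14 had its highest level in S. Rps2, a 40S protein at the mRNA entry site, went from 3481 to 4422 CPM and from 3942 to 4826 CPM at day 7, from 2750 to 3141 CPM and from 2773 to 3242 CPM at day 14, and from 5099 to 5935 CPM and from 5537 to 6262 CPM in control and KO. Rpl14, a 60S protein, went from 1676 to 2059 CPM and from 1905 to 2252 CPM at day 7, from 1307 to 1634 CPM and from 1304 to 1679 CPM at day 14, and from 2230 to 2581 CPM and from 2359 to 2672 CPM in control and KO. Both were higher in S in 6 of 6 libraries, and levels overlapped across libraries. The fitted log2 was 0.29 for Rps2 (edgeR adjusted p = 1.64e-07) and 0.31 for Rpl14 (adjusted p = 4.32e-08), and values were 0.24 for Rps27l (adjusted p = 1.81e-05) and 0.23 for Rpl41 (adjusted p = 0.000122).

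The members that fell most in S were again led by Rps27, at 3525 and 3551 CPM at day 7, 3942 and 3615 CPM at day 14, and 3305 and 3304 CPM in control and KO. All of these S values lay under the 6 G1 values given above, with a log2 of -0.31 (edgeR adjusted p = 2.91e-07). Rps27rt (-0.19, adjusted p = 0.000465), Rps24 (-0.15, adjusted p = 0.000503), Rpl30 (-0.15, adjusted p = 0.00311) and Rps15a (-0.15, adjusted p = 0.0051) fell as well. Rps27 and Rps27l thus differed from G1 in opposite directions, with G1 to S values for Rps27l of 272 to 315 CPM and 315 to 342 CPM at day 7, 132.1 to 139.7 CPM and 132.0 to 136 CPM at day 14, and 259 to 331 CPM and 274 to 343 CPM in control and KO. Rplp1 (0.15, adjusted p = 0.00917), Rplp2 (0.12, adjusted p = 0.00152) and Rps19bp1 (0.19, adjusted p = 0.00279) rose, and Rplp0 stood at 0.02 (adjusted p = 0.687). Ribosome assembly genes rose in 29 of 40 cases and fell in 2, with a median of 0.21, led by the nucleolar genes Nop56 at 0.74, Nolc1 at 0.69 and Rrp1b at 0.66. The other TOP-type genes were mixed (8 lower, 11 higher), with Vim at -0.74, Nap1l1 at 0.50 and Npm1 at 0.42.

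Most rises in S did not pass among cells of like depth: with 7000 to 10000 UMIs only Rpl14 did (0.17, edgeR adjusted p = 0.0498), Rps2 stood at 0.07 (adjusted p = 0.382), and 25 members fell, including 16 of the 17. The 25 were 30.1% of members, beside 16.4% of all genes. With no scaling beyond the total, 29 fell and 18 rose (34.5% and 21.4% of members, beside 38.8% and 25.1% of all genes).

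**Figure D2:**
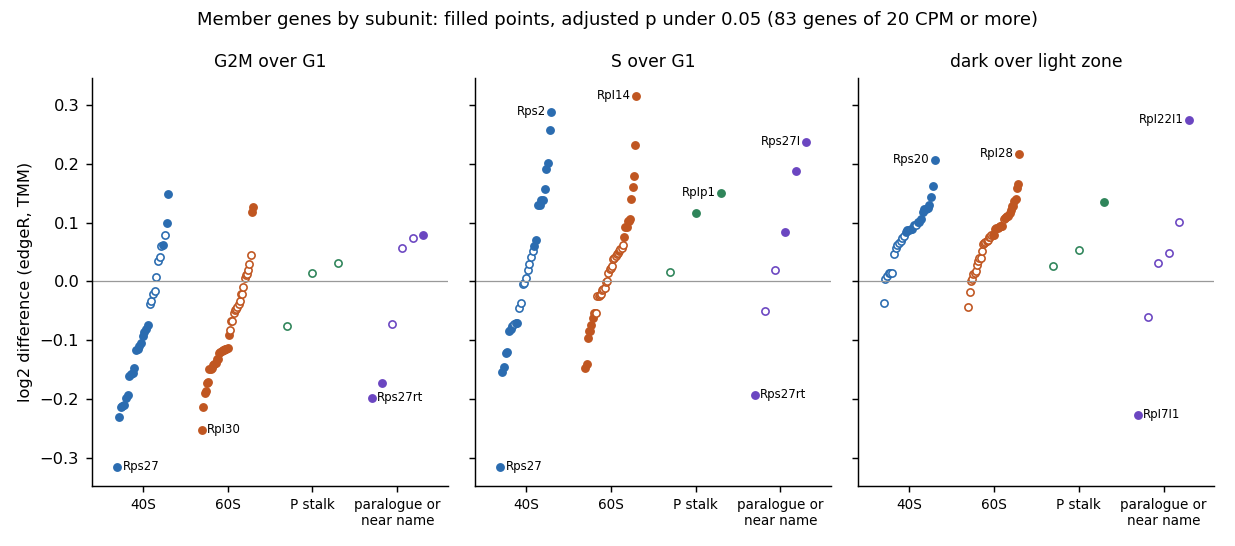
Fitted log2 difference (y axis) of the 83 members with a mean of at least 20 CPM in G2M against G1, S against G1 and DZ against LZ, by subunit class (x axis), with filled points at an edgeR adjusted p under 0.05. Rps27 is the lowest point in both phase panels (-0.32 and -0.31), and 42 of the 83 points are past the test above 0 in the zone panel.

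Between the zones, the summed share over all cells was lower in DZ than in LZ cells in 6 of 6 libraries. It was 22.35% in DZ and 22.76% in LZ cells of day 7 library 1 and 22.99% and 23.59% in library 2, 21.20% and 21.76% in day 14 library 1 and 20.89% and 21.38% in library 2. The gap was wider in the chimaeras, at 26.34% and 28.45% in control and 26.28% and 28.66% in KO cells. Among cells with 7000 to 10000 UMIs DZ was lower in 5 of 6 libraries, and day 7 library 1 turned, at 21.18% in 44 DZ cells and 20.96% in 100 LZ cells. Zone and phase calls went together: in day 14 library 1, 2684 DZ cells and 86 LZ cells were in G2M, and 1106 and 2685 were in G1. Within a phase the order changed. In S cells of day 14 the share was 22.56% in DZ and 21.04% in LZ cells of library 1 and 22.39% and 20.73% in library 2, so that DZ was higher, with median UMIs per cell of 4350 and 3455 in library 1. In G1 cells of the chimaeras DZ stayed lower, at 27.87% and 29.12% in control and 27.45% and 29.39% in KO cells.

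At equal phase, with library and phase in the edgeR model, 1 member was lower and 43 of 84 were higher in DZ than LZ cells, against backgrounds of 25.1% lower and 27.5% higher among 10679 genes. The median log2 was 0.09 for members. Counts were summed per library, phase and zone, so the phases of a library entered as separate sums. The p-values of this zone test therefore measure the spread among those sums and not between libraries alone. The higher share of members did not stand above that of all genes in every setting. Without the phase term 12 fell and 4 rose, where 30.1% of all genes fell and 27.5% rose. With no scaling 4 fell and 19 rose, and the 19 were 22.6% of members, as of all genes. Among cells with 7000 to 10000 UMIs 1 fell and 3 rose, Rpl28 and Rps20 among them, where 14.3% and 14.9% of all genes did. Leaving out day 14 library 1 or 2 left 22 or 23 members higher (26.5% and 27.4%, beside 26.8% and 26.7% of all genes). Within G1 cells 3 members were lower and 3 higher, where 20.5% and 19.4% of all genes were. Within S cells 1 was lower and 32 of 83 (38.6%) higher, beside 17.9% and 18.9% of all genes, and within G2M cells 2 were lower and 23 of 84 (27.4%) higher, beside 13.5% and 15.7%. Whether the zone difference changed with the phase was not tested.

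The 2 best-supported genes at matched depth were small in effect. Rpl28, a 60S protein, stood at 4443 and 4534 CPM in LZ and DZ cells of day 7 library 1, 4478 and 4594 CPM in library 2, 3490 and 3789 CPM and then 3298 and 3610 CPM at day 14, 5410 and 5512 CPM in control and 5436 and 5384 CPM in KO cells. DZ was higher in the first 5 of these libraries and lower in the KO library before phase was taken into account, and the fitted log2 was 0.22 (adjusted p = 4.24e-07). Rps20 had a log2 of 0.21 (adjusted p = 1.08e-05), Rpl7 of 0.17 (adjusted p = 0.00311) and Rps6, the substrate of S6 kinase, of 0.16 (adjusted p = 0.000174). Among members with a mean of at least 20 CPM the highest value belonged to Rpl22l1, at 0.27 (adjusted p = 6.5e-05), beside 0.11 for Rpl22 (adjusted p = 0.00681); the former stood at 646 and 728 CPM in LZ and DZ cells of day 7 library 1, 615 and 681 CPM in library 2, 527 and 547 CPM and then 499.7 and 501 CPM at day 14, 781 and 755 CPM in control and 793 and 790 CPM in KO cells. Its rise was largest at day 7 in these raw values, and the chimaeras went slightly the other way.

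The single member that fell was Rpl7l1, an assembly factor of the 60S subunit: it stood at 96.8 and 94.4 CPM in LZ and DZ cells of day 7 library 1, 107 and 90.1 CPM in library 2, 64.1 and 58.3 CPM and then 71.6 and 62.6 CPM at day 14, 83.95 and 81.1 CPM in control and 84.9 and 78.0 CPM in KO cells. DZ was lower in 6 of 6 libraries, with a log2 of -0.23 (edgeR adjusted p = 2.5e-05) and -0.27 at matched depth. It went with the 40 ribosome assembly genes, of which 37 fell and 1 rose in DZ cells with a median of -0.47, led by the RNA polymerase I subunit Polr1b at -1.50, Gnl3 at -1.39 and Rrp1b at -0.99. The medians of the assembly genes and of the members were thus on opposite sides of 0 in this model. The members' median was itself below 0 without the phase term (-0.013) and within G1 cells (-0.019). The median of the assembly genes was not taken in those settings. The lowest of the other members, none past the test, were Rps19bp1 at -0.06, Rpl12 and Rps2 at -0.04 and Rpl38 at -0.02. Among the remaining named genes, Rplp0 (0.13, adjusted p = 0.00229), Rps27 (0.12, adjusted p = 0.0457), Rpl36a (0.12, adjusted p = 0.0201) and Fau (0.20, adjusted p = 8.97e-06) rose. Rplp1 (0.05), Rplp2 (0.03), Rpl39 (0.11), Rps27l (0.10), Rps27rt (0.03) and Rpl36al (0.05) did not pass. Of the other TOP-type genes 4 fell and 7 rose, with the helicase gene Eif4a1 at -0.34, Npm1 at -0.33 and Nap1l1 at 0.21.

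The deposited clusters were drawn on these same cells, so values by cluster are a description with no test. Cluster names rest on marker lists, with the suffix -like. The memory-precursor-like clusters were led by genes that include Klf2 and Ccr7 at day 14. All 10 memory and 6 or 8 of 8 naive B cell markers were raised in them. Over all cells their share was the highest of the table. It was 25.55% and 25.38% in the day 14 libraries, 30.81% in control and 31.37% in KO cells. At matched depth it stayed highest in the chimaeras, at 31.11% in control and 31.64% in KO cells. It was not highest at day 14 at matched depth, at 26.56% and 26.16%. Day 14 cluster 2 stood at 26.90% and 27.15% there. Day 7 cluster 3, in which all 10 memory and all 7 listed naive markers were raised too, was led by haemoglobin genes beside Klf2 and was not named. Its share, 22.58% and 23.33%, was below that of day 7 cluster 0, at 23.92% and 24.49%. The MYC-selected-like clusters stood at 23.85% and 24.32% at day 7, 22.37% and 21.91% at day 14, and 26.52% and 26.42% in control and KO. These values lay above their libraries at day 7 and day 14 and below them in the chimaeras. At matched depth they were 22.17% and 23.08%, 24.93% and 24.40%, and 25.52% and 24.93%, in that order. Their libraries stood at 21.02% and 21.64%, 24.87% and 24.41%, and 27.08% and 26.68% there. The plasma-like clusters, in which all 10 plasma cell markers were raised, stood at 21.28% and 20.78%, 21.22% and 22.70%, and 23.71% and 24.29%. These are shares of the shared symbols. Over all symbols they were 20.90% and 20.44%, 17.47% and 20.49%, and 17.95% and 19.59%. At matched depth the shares of the shared symbols were 9.78% and 15.19% at day 7, in 8 and 10 cells. They were 23.25% and 24.76% at day 14 and 22.35% and 23.41% in control and KO. The lowest shares were in unnamed day 14 clusters: cluster 3, with median UMIs of 1294 and 1162 per cell and 10.1% and 10.9% mitochondrial UMIs, at 12.87% and 12.75%, cluster 8 at 6.12% and 7.75%, and cluster 10, with 26 and 24 cells, at 5.93% and 6.35%. At matched depth cluster 3 stood at 22.57% and 21.84%, in 33 and 41 cells. That was still below its libraries at that depth (24.87% and 24.41%), by less than over all cells. Cluster 8 stood at 7.32% in 3 cells of library 1 and at 20.63% in 1 cell of library 2. The part of depth and RNA quality in the low shares over all cells was not tested.

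Which members made up the total also differed by cluster, as seen in the share of member UMIs held by each gene, set against the other cells of the same library. In the memory-precursor-like clusters 28 of 83 members gained and 29 lost within that total in each of 4 libraries. By CPM, 56 were higher and 4 lower in each of the 4, where 14.9% of all genes with a mean of at least 20 CPM were higher and 53.8% lower. Rps27 gained most within the total, by a mean log2 of 0.37, ranging from 0.02 to 0.71: its CPM reached 8105 and 7284 in the day 14 clusters, against 4353 and 4130 CPM in control and KO. The gain was large at day 14 and near 0 in the chimaeras, where the gate was the same. Rps15a (0.35), Rpl39 (0.35), Rpl30 (0.32) and Rps24 (0.31) followed, and Rps19bp1 (-0.59), Rps27l (-0.55), Rps15 (-0.52), Rpl5 (-0.51) and Rps6 (-0.45) were lowest.

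In the MYC-selected-like clusters, in which all 10 markers of MYC-driven growth were raised, 27 of 83 members gained and 24 lost within the total in each of 6 libraries. By CPM, 29 were higher and 10 lower, beside 26.9% and 32.7% of all genes. Rps19bp1 (0.56), Rpl7l1 (0.50), Rps2 (0.41), Rps27l (0.41) and Rpl14 (0.31) gained within the total, and Rps27 lost, by a mean log2 of -0.37 with a range of -0.45 to -0.28. Rps27 stood there at 3418 and 3321 CPM at day 7, 3451 and 3196 CPM at day 14, and 2760 and 2711 CPM in control and KO, and Rps27l at 340 and 390 CPM, 179 and 163 CPM, and 424 and 420 CPM. The paralogues thus went in opposite directions in 6 of 6 libraries. Rps2, Rpl14 and Rps27l are also among the members that rose most in S, and Rps27 and Rps27rt among those that fell.

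In the plasma-like clusters 13 of 83 members gained and 17 lost within the total in each of 6 libraries. By CPM, 6 were higher and 14 lower, beside 13.5% and 38.3% of all genes. Rpl36al gained a mean log2 of 0.97 within the total, ranging from 0.52 to 1.32, while its paralogue Rpl36a stood at 0.01. Rpl36al reached 1753 and 1919 CPM at day 7, 1648 and 1378 CPM at day 14, and 2487 and 2229 CPM in control and KO, each above the level of its whole library. Rpl10, which joins the 60S subunit late in assembly, gained 0.87 (0.803 to 1.004) and reached 2901 and 1987 CPM at day 7, 1127 and 1082 CPM at day 14, and 943 and 953 CPM in control and KO. Rpl41 (0.53), Rps27l (0.49, higher in 5 of 6 libraries) and Rpl38 (0.28) followed. Rps27rt (-0.49) and Rpl22l1 (-0.45, range -0.89 to -0.23) were lowest.

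**Figure D3:**
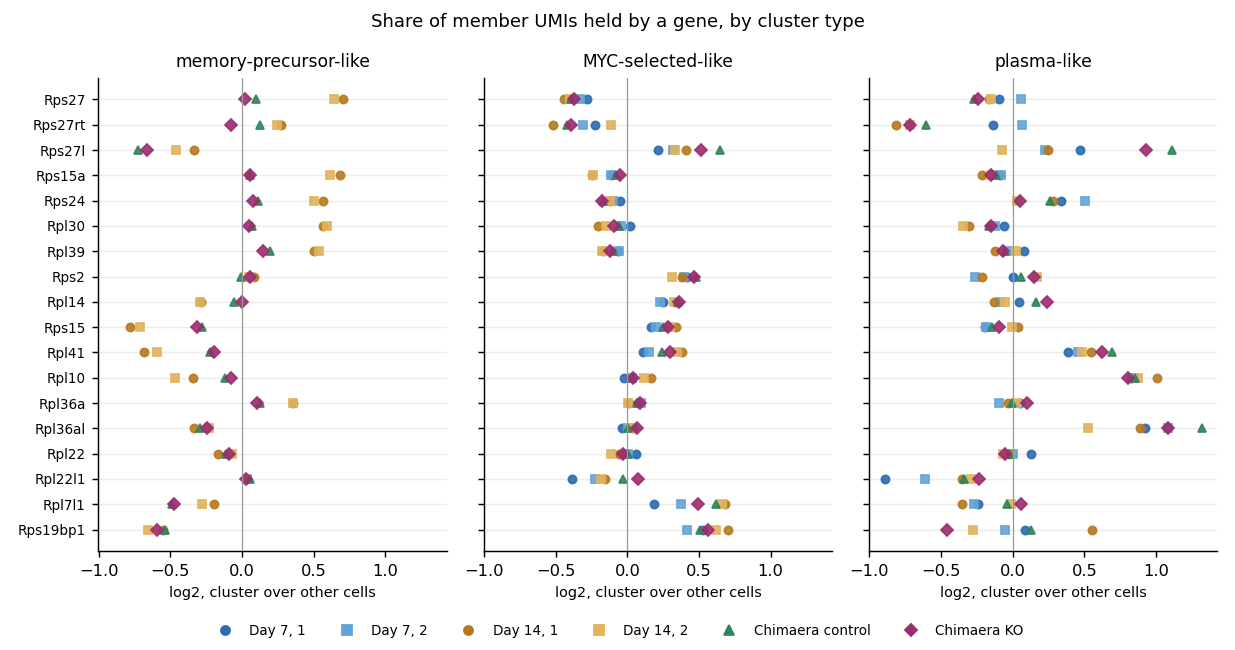
Log2 ratio of the share of member UMIs held by a gene in a cluster over that in the other cells of its library (x axis), for 18 genes (y axis) in the memory-precursor-like, MYC-selected-like and plasma-like clusters, with 1 point per library. Rpl36al and Rpl10 lie right of 0 in the plasma-like clusters, and Rps27 lies left of 0 in the MYC-selected-like clusters of 6 libraries.

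Day 14 libraries were compared with day 7 libraries on counts summed per library. At an edgeR adjusted p under 0.05, 53 of 84 members fell and 8 rose, against backgrounds of 33% and 34.9% of 11971 genes, with a median log2 of -0.40 for members and 0.04 for all genes. The comparison carries the differences in gate, cell filter, annotation and depth that are named above. With no scaling beyond the total, 45 fell and 20 rose (53.6% and 23.8% of members, beside 25.7% and 42.7% of all genes). The median of all genes then moved from 0.04 to 0.23 and that of members from -0.40 to -0.21. In cells with at most 5% mitochondrial UMIs the members' median was -0.09, with 38 lower and 22 higher. These were 45.2% and 26.2% of members, beside 26.9% and 27.4% of all genes. In cells with 7000 to 10000 UMIs, the smallest of day 7 and the largest of day 14, the median was 0.12: 11 fell and 36 rose, where 22.2% and 22.3% of all genes did, and 10 of the 53 were higher. The 11 were Rpl10, Rpl13a, Rpl23a, Rpl34, Rpl7l1, Rpl9, Rps15a, Rps21, Rps27l, Rps27rt and Rps7, each also among the 53. All 8 that rose in the whole libraries (Rpl31, Rpl36, Rpl37a, Rpl6, Rps15, Rps19, Rps19bp1 and Rpsa) rose at matched depth. Without 1 library the count of members that rose was 15 without day 7 library 2, 5 without day 14 library 1 and 4 without day 14 library 2.

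The per-cell share itself moved with UMIs per cell in the day 14 libraries. It averaged 10.8% in cells under 1000 UMIs in both, then 12.7% and 13.2%, 18.2% and 18.5%, 22.7% and 22.4%, and 24.8% and 24.3% in cells with 7000 to 10000 UMIs. In day 7 cells of that last size it was 21.0% and 21.6% (143 and 152 cells). In the chimaeras it moved only from 24.6% to 27.4% over bins from 1000 to 20000 UMIs. Day 14 libraries thus lay below day 7 libraries over all cells and above them at this depth. Mitochondrial genes took 12.7% and 13.3% of UMIs in the day 14 cells under 1000 UMIs and 5.54% and 5.84% in those with 7000 to 10000.

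The members with the largest differences went the same way at both settings. Rpl13a, a 60S protein that also takes part in interferon-dependent translational control, stood at 2715 and 2827 CPM at day 7 and 913 and 847 CPM at day 14, and at 2896 and 2664 CPM in control and KO, which are day 14 libraries as well. Its log2 was -1.84 (edgeR adjusted p = 2.62e-05), and -1.56 at matched depth. Rpl23a stood at 953 and 1004 CPM, 314 and 301 CPM, and 878 and 872 CPM, with a log2 of -1.86 (adjusted p = 2.45e-05) and -1.24 at matched depth. For both genes the chimaeras resembled day 7 and not the other day 14 libraries. Rpl10 differed from them: it stood at 1784 and 1262 CPM at day 7, 571 and 550 CPM at day 14, and 618 and 617 CPM in control and KO, with a log2 of -1.63 (adjusted p = 0.000197). The counts of Rpl10 and Rpl23a are uncertain, since 9 and 16 near-identical copies (at least 95% identity over at least 80% of the length) are annotated for them, 2 of the 9 identical, and reads may be split differently under each table's annotation. The symbol Rpl10-ps3 stood at 1980 and 2095 CPM of all symbols at day 7, 527 and 424 CPM at day 14, and 1595 and 1433 CPM in control and KO. No such copy was found for Rpl13a by this measure, though the symbol Rpl13a-ps1 was listed, at 0.184 to 2.36 CPM of all symbols. Rps27rt had a log2 of -4.02 (adjusted p = 0.000271) and Rps27l of -1.39 (adjusted p = 5.21e-05), which was -0.39 at matched depth.

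Of the members that rose, Rpl36 had a log2 of 0.76 (edgeR adjusted p = 0.000545) and 1.23 at matched depth, Rpl37a of 0.54 (adjusted p = 0.000705), Rps19bp1 of 0.37 (adjusted p = 0.00543), Rpsa of 0.34 (adjusted p = 0.0094) and Rpl6 of 0.33 (adjusted p = 0.0106). The P stalk genes fell together over all cells: Rplp0 from 5183 and 5392 CPM to 3478 and 3429 CPM (-0.80, adjusted p = 0.000182), Rplp1 (-0.59, adjusted p = 0.00171) and Rplp2 (-0.71, adjusted p = 0.000597). At matched depth none of the 3 passed the test, with values of 0.04, 0.11 and 0.01. Rps27 itself stood at -0.05 (adjusted p = 0.608). Rpl36a (-0.91), Rpl36al (-0.39), Rpl22 (-0.37), Rpl22l1 (-0.57), Rpl39 (-0.78), Rpl7 (-0.74) and Rpl7l1 (-0.80) fell. Outside the symbol rule, Fau rose (0.44, adjusted p = 0.00183). Of 24 other TOP-type genes 22 fell and 1 rose, with a median of -0.86, among them Btf3 at -2.21, the initiation factor Eif3m at -2.03 and the elongation factor Eef1a1 at -1.42. Of the 40 assembly genes 20 fell and 10 rose, with Nop10 at -1.88, Gar1 at -1.62 and Taf1d at 1.45.

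**Figure D4:**
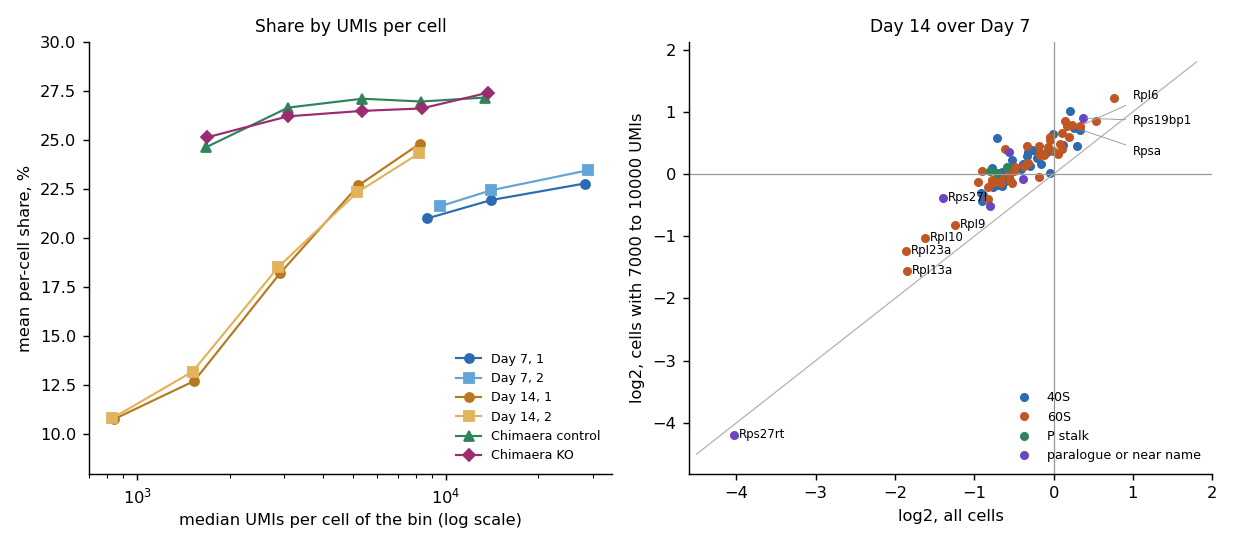
Left, mean share of UMIs per cell held by members (y axis, percent) against the median UMIs of cells binned by UMIs (x axis, log scale), 1 line per library and bins of at least 50 cells. Right, log2 of day 14 over day 7 for 83 members in all cells (x axis) and in cells with 7000 to 10000 UMIs (y axis), with the line of equality: most points lie above it, and Rpl13a, Rpl23a, Rpl10, Rpl9 and Rps27rt are below 0 on both axes.

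Whether the G2M difference itself changed with the day was tested as an interaction. It was lower at day 14 than at day 7 for 35 members and higher for 7, against backgrounds of 4.88% and 2.31% of 11346 genes. Rps15a had the lowest value, with G1 to G2M levels of 3868 to 3558 CPM and 4065 to 3764 CPM at day 7 and 2996 to 2133 CPM and 2629 to 1905 CPM at day 14: the drop was larger in both day 14 libraries, with an interaction log2 of -0.36 (edgeR adjusted p = 2.51e-07). Rpl30 (-0.35, adjusted p = 6.9e-07), Rpl39 (-0.31, adjusted p = 3.3e-06), Rpl15 (-0.30, adjusted p = 6.85e-06) and Rps27 (-0.29, adjusted p = 4.4e-06) followed. Rps15 (0.28, adjusted p = 4.08e-05), Rpl41 (0.25, adjusted p = 6.2e-05) and Rpl6 (0.16, adjusted p = 0.00301) were higher, and Rps19bp1 stood at 0.25 (adjusted p = 0.152). The lower group was lost among cells with 7000 to 10000 UMIs, of which day 7 had few (17 and 26 in G2M): 0 members were lower and 18 higher, beside 1.56% and 1.19% of all genes, with 6 of them from the 7, including Rpl17, Rpl26, Rpl41, Rpl6 and Rps15. The members' median interaction was -0.07 with all libraries, beside -0.03 for all genes. Leaving out 1 library left 1 library of a day. The members' median was then -0.10 or -0.07 without day 14 library 1 or 2. It was -0.03 or -0.06 without day 7 library 1 or 2. For all genes these 4 medians were -0.03, -0.03, 0.0034 and 9.1e-05. For S against G1 the interaction was lower for 17 and higher for 10 members, against 4.27% and 2.18%.

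The chimaeras addressed whether loss of Il4ra from Ccl19-lineage stromal cells of the host, among them follicular dendritic cells, changed germinal centre B cells. With 1 library per group there is no test and no replicate check. None of the 83 members with at least 20 CPM was past a log2 of 0.25 in either direction in the KO over the control library, while 4.71% of 5055 genes were lower and 2.91% higher by that measure. The members ranged from -0.12 for Rpl13a, at 2896 CPM in control and 2664 CPM in KO cells, to 0.12 for Rps29, at 3535 and 3839 CPM. Exact 95% intervals, which cover counting error only, were -0.13 to -0.11 for Rpl13a and 0.11 to 0.13 for Rps29. The median was -0.01 and the SD across members 0.048. Rps27, which differed most by phase, stood at -0.05, Rps27l at 0.10 and Rplp0 at 0.05.

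The same ratio between libraries of 1 group gives the size of differences without a change of host. Between the 2 day 14 libraries 0 of 83 members were past 0.25, where 0.947% of genes were lower and 0.947% higher, and members ranged from -0.19 for Rps21 to 0.12 for Rpl7l1. Between the 2 day 7 libraries 7 members were lower and 0 higher in library 2, against 10.4% and 4.55% of genes, so that the lower share of members was not above that of all genes. They were Rps27rt (-1.25), Rpl9 (-0.60), Rpl10 (-0.50), Rpl17 (-0.48), Rpl21 (-0.43), Rpl35a (-0.32) and Rpl41 (-0.27). Rpl9 stood at 2111 and 1397 CPM in the 2 libraries, Rpl17 at 1684 and 1209 CPM, and Rpl21 at 2851 and 2115 CPM. A near-identical copy elsewhere among the annotated transcripts, by the same measure, was found for 27 of 84 members, for 4 of these 7 and for 23 of the 76 other members above 20 CPM, and an identical one for 2 of the 7 and 4 of the 76. For members with such copies the deposited counts are uncertain, since reads can be split between copies. The measure does not cover every listed -ps symbol. Rps26 had no copy by it, while Rps26-ps1 stood at 444 and 222 CPM of all symbols in day 7 libraries 1 and 2. Erythroid markers summed to 655 and 219 CPM in the 2 day 7 libraries, and their part in this difference was not tested. The KO and control libraries thus had fewer members past 0.25 than the day 7 pair and as many as the day 14 pair.

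**Figure D5:**
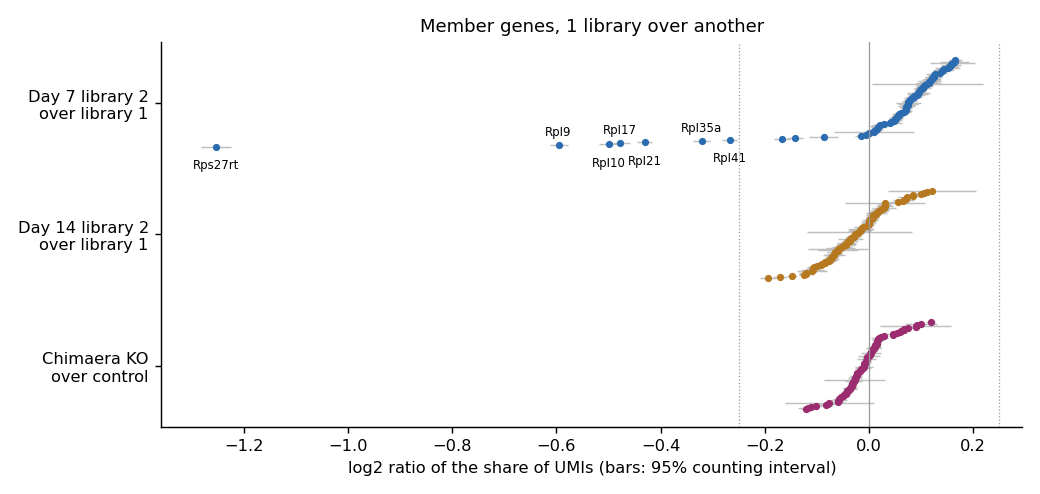
Log2 ratio of the share of UMIs (x axis) for 83 members in the KO over the control library, day 14 library 2 over 1 and day 7 library 2 over 1 (y axis), with bars for the 95% counting interval and dotted lines at -0.25 and 0.25. Only the day 7 pair has members beyond the lines, the lowest being Rps27rt at -1.25.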

How the data were processed

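Counts of UMIs per gene and cell were used as deposited by the authors, who worked with Cell Ranger, Seurat and the mm10 build per the submitters' processing notes. Versions, and how phase, zone and cluster were called for each cell, are not given in the sources used here. All deposited cells were kept and no doublet caller was run; an alternative left out the 5% of cells with most UMIs in each library. Counts were summed per library, or per library and phase, zone or cluster, over symbols in all 3 tables, and CPM is relative to their total. The members and lists were chosen with earlier results of these data known.

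Phases, zones and days were compared with edgeR 4.0.16 (quasi-likelihood test, TMM, filterByExpr, R 4.3.3) over all genes, at a Benjamini-Hochberg adjusted p under 0.05, with library as a block for phases, and library and phase for zones. The scripts were tested on simulated data. A full DESeq2 1.42.0 fit in place of edgeR was an alternative, and RLE size factors within edgeR were another. Shares have exact Clopper-Pearson 95% intervals and ratios of 2 libraries exact conditional binomial ones, covering counting error only.

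Named genes were the 5 highest and 5 lowest members of each comparison with a mean of at least 20 CPM, the 6 with the highest mean, the P stalk genes, the paralogues with their parents, Fau and Rack1, and the 3 strongest genes of the 2 other lists. Genes named beyond this, such as those in clusters or past a fold between libraries, were chosen after their values were seen. Some genes that the rule names are not reported here. Copies were found with BLAST 2.17.0 in GENCODE M21 transcripts.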

Additional observations from a re-analysis of the deposited data

Results flagged for a closer look

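The G2M against G1 difference of the members was not the same on the 2 days, by the edgeR interaction test: it was lower at day 14 for 35 members and higher for 7, where 4.88% and 2.31% of all genes were. Among cells with 7000 to 10000 UMIs 0 members were lower and 18 higher, and the members' median went from -0.07 to 0.20. The named members with a difference between days were Rps15a (-0.36), Rpl30 (-0.35), Rpl39 (-0.31), Rpl15 (-0.30), Rps27 (-0.29), Rps15 (0.28), Rpl41 (0.25) and Rpl6 (0.16), as log2 of the day 14 over the day 7 difference.

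Symbols ending in -ps, which the member rule leaves out, held signal of their own: 6288 and 5545 CPM in the day 7 libraries, 2374 and 2203 CPM in the day 14 libraries, and 4302 and 4077 CPM in control and KO. The tables list 16, 9 and 7 such symbols, so the sums do not cover the same genes. Rpl9-ps6 alone stood at 2725, 2656, 1762, 1694, 2536 and 2478 CPM of all symbols in these libraries, and Rpl10-ps3 at 1980, 2095, 527, 424, 1595 and 1433 CPM. Rpl6l, which is listed at day 7 but is outside the shared symbols, had 697 UMIs there. Groups here are too small for a test for samples far from the rest.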

How the results depend on the processing

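Of 178 alternative values of counts and shares, 109 stayed within 1.5 times or the replicate spread and 69 moved. Without scaling, counts of members lower and higher were 29 and 18 in S and 4 and 19 in DZ. There were 0 higher in G2M and 20 higher at day 14. The matching shares of all genes were 38.8% and 25.1%, 28.3% and 22.6%, 22.8%, and 42.7%. With 7000 to 10000 UMIs the member counts were 0 higher in G2M, 1 higher in S and 3 higher in DZ. They were 11 and 36 at day 14, and 0 and 18 for the interaction. The matching shares of all genes were 20.3%, 19.3%, 14.9%, 22.2% and 22.3%, and 1.56% and 1.19%. That depth together with no scaling, chosen after seeing the data, gave 0 higher in G2M and 3 higher in S. It gave 2 and 3 in DZ, and 15 and 36 at day 14. For all genes the shares were 19.4%, 18.4%, 14.7% and 13.6%, and 22.6% and 21.6%. Without the 5% of cells with most UMIs, 2 were higher in G2M and 17 in S, beside 28% and 28.3% of all genes. With at most 5% mitochondrial UMIs 2 were higher in G2M and 22 at day 14, beside 26.5% and 27.4%. Leaving out the clusters led by memory-precursor, haemoglobin or plasma genes was also chosen after seeing the data. It gave 3 higher in G2M and 9 lower in S, beside 24% and 32% of all genes. With no replicate block (group in place of library) 2 were higher in G2M and 28 in DZ, beside 26.4% and 26.6% of all genes. In S 9 were lower and 17 higher, beside 31.5% and 27.1%. A replicate block for day gave 51 lower and 8 higher, beside 34% and 36.2%. The day 7 and day 14 numbers are shared labels only (correlation of deviations 0.2054 over 10125 genes). The zone term gave 2 higher in G2M and 16 in S, beside 22.4% and 27.6% of all genes. DZ without the phase term gave 12 and 4, within G1 3 and 3, and within G2M 2 and 23. Leaving out each library gave 2 to 7 higher in G2M, 8 to 18 and 18 to 33 in S, and 22 to 54 higher in DZ. The matching shares of all genes were 26% to 28.4%, 30.3% to 33% and 27.7% to 29%, and 25.4% to 28.2%. The day and interaction fits then held 1 library of a day. Their member medians ranged from -0.50 to -0.38 and from -0.10 to -0.03. The cause of these moves was not tested.

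The share of UMIs at day 7 was 23.5% without mitochondrial genes and 21.3% at matched depth. At day 14 it was 20.7% over all symbols, 23.0% without mitochondrial genes, 24.6% at matched depth and 18.8% as the mean per cell. For the control these 4 values were 26.2%, 28.1%, 27.1% and 26.9%, and for the KO library 26.3%, 28.0%, 26.7% and 26.7%. Single members changed sign in G2M at matched depth (Rpsa -0.035, Rpl41 -0.0093, Rpl14 -0.079), at that depth with no scaling (Rpsa -0.018, Rpl14 -0.064) and with the zone term (Rpsa -0.010). Rpl7 in DZ stood at -0.00082 without the phase term, and the Rpl15 interaction at 0.12 at matched depth. For KO over control, none of the alternatives run put a member past 0.25.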
